A study of Mus musculus with 24 samples.

Results

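Enoyl-CoA isomerases and dienoyl-CoA reductases are the auxiliary enzymes that let beta-oxidation deal with the double bonds of unsaturated fatty acids, and the data on their transcripts are described here for 6 genes: Eci1, Eci2, Eci3, Decr1, Decr2 and Ech1. They were chosen by gene name, as every probe set that the array's annotation assigns to one of these genes, which gave 7 probe sets (2 for Decr1, 1 for each other gene) among 34945 with a single gene and 18193 genes in all. The arrays held RNA from livers and hearts of SV129 mice that lack PPARα (Ppara knockout, KO) and of wild-type (WT) SV129 mice, 10 to 12 weeks old and sampled at zeitgeber hour 14, that is, hours after lights on. No treatment or diet was named in the labels. In each tissue the 4 groups were female KO (pools 10 to 12), female WT (pools 7 to 9), male KO (pools 4 to 6) and male WT (pools 1 to 3), each of 3 pools that combined RNA of 4 mice, for 24 arrays in all. Values are log2 intensities after robust multi-array averaging by the authors, ± gives the SD over 3 pools, and a gene passed at a Benjamini-Hochberg adjusted p under 0.05 in limma over all 18193 genes. A log2 difference is KO minus WT unless stated, and the number of arrays limits its precision.

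Beta-oxidation shortens an acyl-CoA from its carboxyl end and needs a trans double bond next to the carbonyl. A cis double bond at an odd-numbered carbon is moved into place by an enoyl-CoA isomerase, which Eci1, Eci2 and Eci3 encode. A double bond at an even-numbered carbon leads to a 2,4-dienoyl-CoA, which needs an NADPH-dependent dienoyl-CoA reductase, Decr1 in mitochondria or Decr2 in peroxisomes. Ech1 encodes a dienoyl-CoA isomerase that feeds the reductase route for odd-numbered double bonds. Eci1 and Decr1 are mitochondrial, Decr2 and Eci3 are peroxisomal, and Eci2 and Ech1 have been found in both organelles. PPARα is a nuclear receptor activated by fatty acids that raises transcription of many beta-oxidation genes in liver and heart.

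The sources used here did not name a genome build for the arrays, and sequences and positions are from RefSeq on GRCm38.p6, whose promoter table held 5 of the 6 genes (Decr1 is named only). The 250 bases before the gene start in that table are shown for 4 members with unlike behaviour in the KO: Ech1, lower in both tissues; Decr2, lower in liver; and Eci2 and Eci3, adjacent coding genes on chromosome 13 of which Eci2 was lower and Eci3 did not pass. Capitals mark the closest match, on either strand, to the direct repeat that PPARα binds with RXR. That repeat is 2 copies of the core AGGTCA with 1 base of any kind between them. Where several stretches matched equally well, only the first found is marked, so equal ones can stand unmarked.
Ech1 (chr7:28825088-28825337, plus strand): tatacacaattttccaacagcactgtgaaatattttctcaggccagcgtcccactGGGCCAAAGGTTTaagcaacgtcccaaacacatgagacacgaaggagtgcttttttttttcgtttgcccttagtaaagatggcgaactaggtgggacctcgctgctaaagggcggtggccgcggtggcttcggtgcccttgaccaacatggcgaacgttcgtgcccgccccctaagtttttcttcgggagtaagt
Decr2 (chr17:26090165-26090414, minus strand): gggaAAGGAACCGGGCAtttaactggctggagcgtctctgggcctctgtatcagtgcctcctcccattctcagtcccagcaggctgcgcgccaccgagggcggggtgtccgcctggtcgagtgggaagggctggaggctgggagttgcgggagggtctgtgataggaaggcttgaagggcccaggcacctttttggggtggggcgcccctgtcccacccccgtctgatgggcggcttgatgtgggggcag
Eci2 (chr13:34994145-34994394, minus strand): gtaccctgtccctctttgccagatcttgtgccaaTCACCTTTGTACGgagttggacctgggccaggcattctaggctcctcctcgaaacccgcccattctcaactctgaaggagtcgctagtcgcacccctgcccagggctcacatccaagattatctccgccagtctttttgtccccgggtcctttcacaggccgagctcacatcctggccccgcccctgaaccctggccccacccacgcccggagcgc
Eci3 (chr13:34963810-34964059, minus strand): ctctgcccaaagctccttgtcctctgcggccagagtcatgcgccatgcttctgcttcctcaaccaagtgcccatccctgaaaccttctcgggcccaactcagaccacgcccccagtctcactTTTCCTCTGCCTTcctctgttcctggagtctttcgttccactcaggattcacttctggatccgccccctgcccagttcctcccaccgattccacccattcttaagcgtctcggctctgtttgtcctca
The closest match differed from the repeat at 4 of its 12 fixed letters in Ech1, Eci2 and Eci3, and at 5 in Decr2. Matches with 4 or fewer differences were present in 74.5% of all 32851 promoters, and those with 5 or fewer in 99.6%. An exact match was present in 0.0335%. The core AGGTCA, or its reverse TGACCT, was in none of the 5 members' windows and in 14.02% of all promoters; its letters make up the 2 parts of the repeat, so these searches overlap. These are letters in a short window and say nothing about binding elsewhere.

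The arrays were checked before the members were compared. Ppara itself was lower in each KO pool than in each WT pool of its tissue and sex: its log2 level spanned 7.27 to 7.60 in KO against 8.24 to 8.69 in WT livers, and 5.28 to 6.13 in KO against 6.73 to 7.27 in WT hearts. Its transcript was still measured in KO tissue, and where its probes lie relative to the deletion is not known here. Xist and Eif2s3y followed the sex labels in liver. In heart, 2 arrays stood apart: Xist measured 6.62 on the one labelled male KO pool 4, where other male hearts did not exceed 3.12, and Eif2s3y measured 3.34 on the one labelled female KO pool 10, where other female hearts did not exceed 2.50. The main heart results of the members are therefore also given without these 2 arrays. All 8 hepatocyte markers lay above the array median in every liver, and all 8 cardiomyocyte markers did in every heart. Array medians were 2.43 to 2.49 for livers and 3.01 to 3.07 for hearts, so levels were not compared between tissues. In whole tissue, fewer cells of a type and less RNA per cell cannot be told apart.

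**Figure D1:**
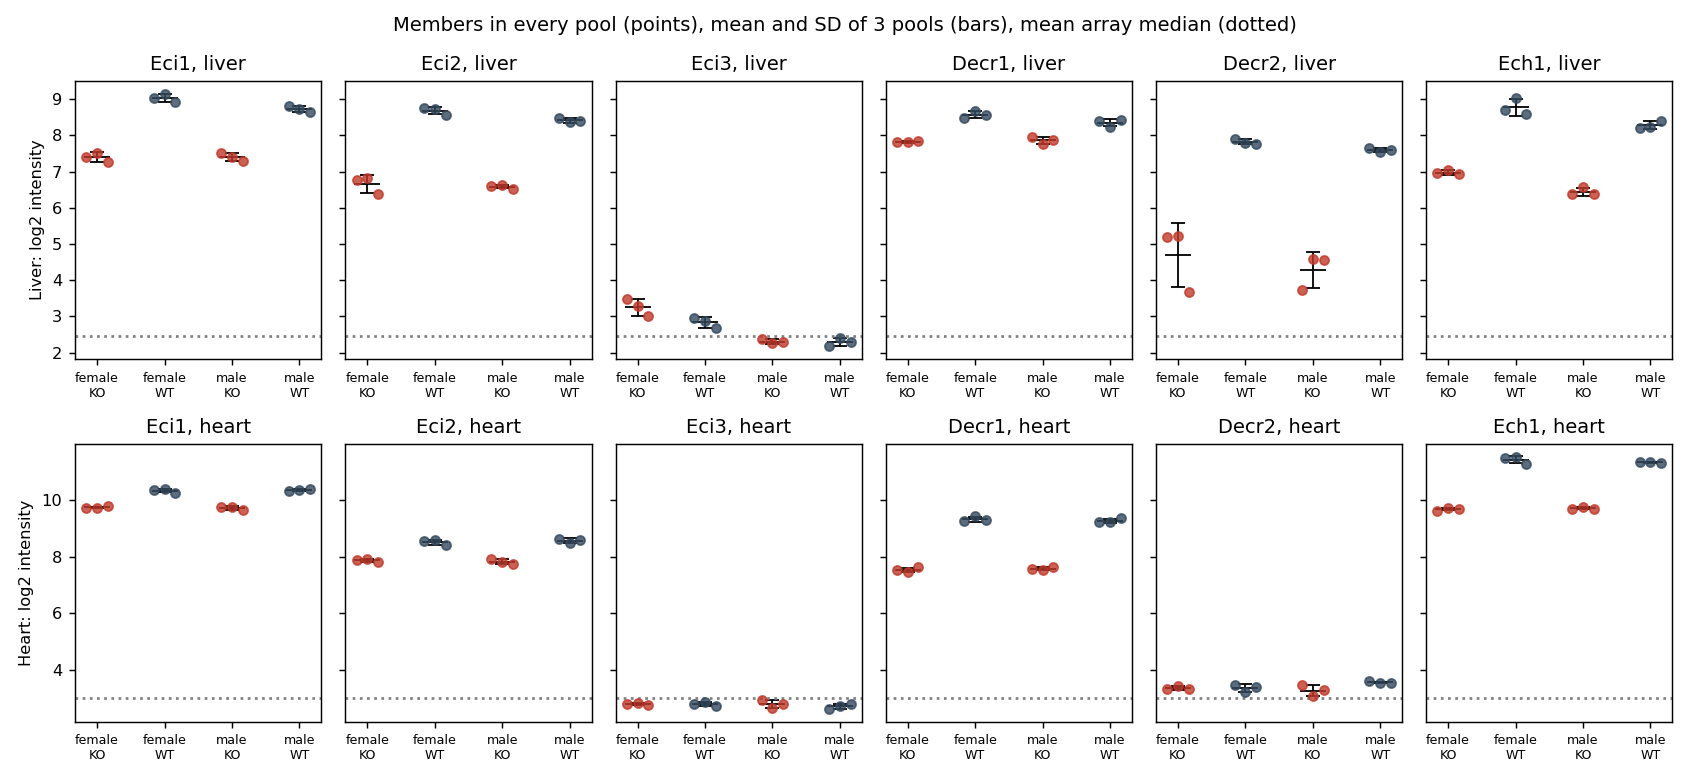
Log2 intensity of each of the 6 genes (columns) in liver (top) and heart (bottom), by sex and genotype; points are pools, bars are the mean and SD of 3 pools, and the dotted line is the mean of the array medians. In liver every gene but Eci3 has all KO pools below the WT pools of the same sex, and in heart Eci3 and Decr2 lie close to the dotted line.

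In livers without PPARα, 5 of the 6 genes were lower in each sex. The peroxisomal reductase gene Decr2 changed most, 8.74-fold in females and 9.85-fold in males; Eci2, Ech1 and Eci1 were lower by 2.52-fold to 4.07-fold, and the mitochondrial reductase gene Decr1 by 1.68-fold in females and 1.40-fold in males. Eci3 did not pass in either sex. These 5 of 6 stand against 0.451% of all genes lower in female KO livers and 0.434% in male KO livers, and 49 genes, 0.269%, were lower in both sexes. The median log2 difference of the 6 genes was -1.72 in females and -1.58 in males, beside -0.0015 and 0.01 over all genes. All 3 KO pools lay below all 3 WT pools for these 5 genes in each sex, as they did for 5.21% of all genes in female and 8.09% in male liver.

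Decr2 had levels of 5.21, 5.21 and 3.67 in female KO livers (pools 10, 11 and 12), against 7.90, 7.80 and 7.77 in female WT livers. In male livers it had 3.72, 4.59 and 4.57 in KO pools, against 7.64, 7.54 and 7.59 in WT pools. The WT pools of a sex were tightly grouped, while 1 KO pool of each sex, pool 12 in females and pool 4 in males, lay well under its 2 companions. The log2 difference was -3.13 in females (SE 0.34, limma adjusted p = 0.000363) and -3.30 in males (SE 0.34, limma adjusted p = 0.000259), the third most negative of all 18193 genes in females and the most negative in males. Without pool 12 the female difference was -2.61.

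The isomerase genes Eci1 and Eci2 were both lower. Eci2, whose product acts on 3-enoyl-CoAs in both organelles, had levels of 6.77, 6.82 and 6.37 in female KO livers, against 8.75, 8.73 and 8.57 in female WT livers. In males it had 6.60, 6.62 and 6.53 in KO livers, against 8.49, 8.37 and 8.39 in WT livers. KO and WT pools were separated by more than 1.7 on the log2 scale in each sex, and the difference was -2.03 in females (SE 0.11, limma adjusted p = 4.15e-07) and -1.83 in males (SE 0.11, limma adjusted p = 1.53e-06). Eci1, the mitochondrial isomerase gene, averaged 7.40 ± 0.13 in KO and 9.04 ± 0.11 in WT female livers, and 7.40 ± 0.11 in KO and 8.73 ± 0.08 in WT male livers (n = 3 pools each). Its differences were -1.64 (limma adjusted p = 5.62e-07) and -1.33 (limma adjusted p = 6.8e-06).

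Ech1, the dienoyl-CoA isomerase gene, had levels of 6.96, 7.04 and 6.92 in female KO livers, against 8.69, 9.04 and 8.60 in female WT livers. In male livers it had 6.38, 6.57 and 6.37 in KO pools, against 8.20, 8.24 and 8.41 in WT pools. The groups did not overlap in either sex, and the differences were alike in size, at -1.80 (SE 0.11, limma adjusted p = 1.35e-06) in females and -1.84 (SE 0.11, limma adjusted p = 1.53e-06) in males.

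Decr1, the mitochondrial reductase gene, changed least among those that passed. Its brighter probe set (1419367_at) had 7.81, 7.81 and 7.85 in female KO livers, against 8.47, 8.68 and 8.57 in female WT livers. In males it had 7.94, 7.76 and 7.87 in KO livers, against 8.39, 8.24 and 8.42 in WT livers, so that the closest KO and WT pools of males were only 0.3 apart. The difference was -0.75 in females (SE 0.08, limma adjusted p = 0.000534) and -0.49 in males (SE 0.08, limma adjusted p = 0.0163). The male call was lost without pool 1, 3, 5 or 6, with differences of -0.50 to -0.44 and limma adjusted p from 0.0579 to 0.0932. The dimmer probe set (1449443_at) gave -1.06 in females and -1.03 in males and passed in limma over all 45037 probe sets (adjusted p = 0.00279 and 0.00481).

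Eci3, the paralog of Eci2 known in mouse mainly from kidney peroxisomes, was dim in liver. It had 3.48, 3.28 and 3.00 in female KO livers, against 2.96, 2.87 and 2.67 in female WT livers, and 2.37, 2.26 and 2.29 in male KO livers, against 2.17, 2.40 and 2.31 in male WT livers. All female KO pools lay above the female WT pools, as they did for 5.18% of all genes, and the male groups overlapped near the array median. The difference was 0.42 in females (95% interval 0.17 to 0.68, limma adjusted p = 0.205) and 0.01 in males (95% interval -0.24 to 0.27, limma adjusted p = 0.988). The female difference passed without pool 12 (0.54), with array weights (0.45) and in a fit of all 24 arrays (0.42), at limma adjusted p of 0.0288, 0.0262 and 0.0423. Kupffer cell and macrophage markers were measured beside these livers: their summed linear intensity ran from 505 to 662 in female KO and from 354 to 671 in female WT livers, and from 363 to 473 in male KO and from 290 to 424 in male WT livers, and none of 8 passed. The 3 measured red blood cell markers summed to 24.6 to 38.2 in female KO and 29.0 to 63.5 in female WT livers, which overlapped, and to 273 to 313 in male KO and 192 to 216 in male WT livers, which did not, and none passed. Hepatocyte markers summed to 54042 to 55174 in female KO and 55280 to 59555 in female WT livers, without overlap, and to 50810 to 52178 in male KO and 51055 to 53424 in male WT livers, and none of 8 passed. The part of these markers in the members' values was not tested.

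**Figure D2:**
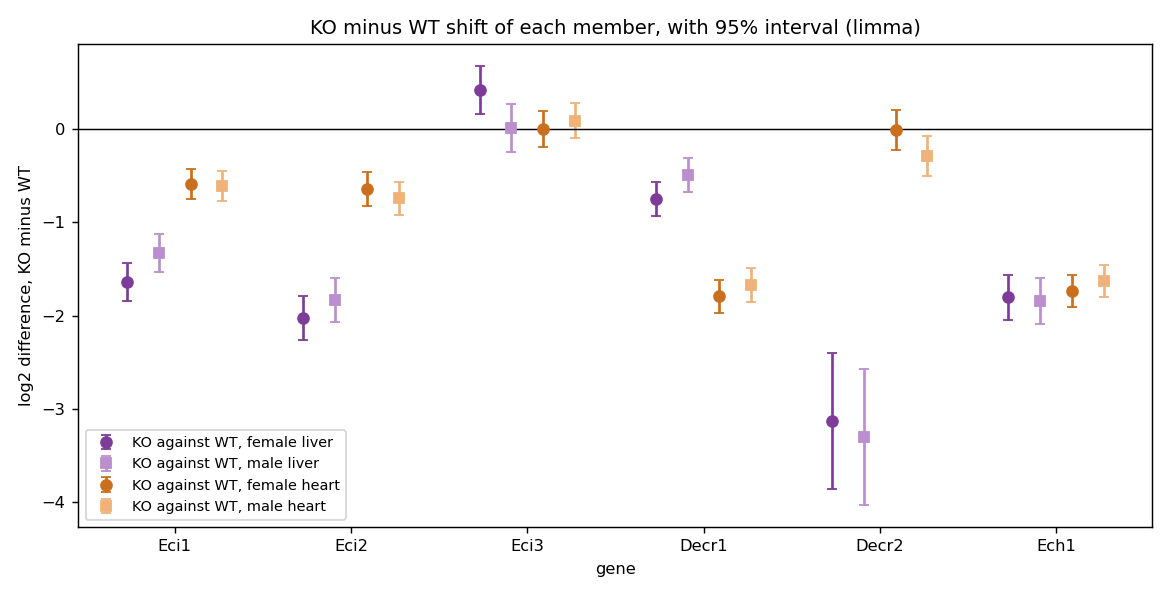
Log2 difference of KO minus WT (vertical axis) for each gene, with limma's 95% interval, in female and male liver and female and male heart. Decr2 reaches -3.30 in liver and -0.29 in heart, Decr1 -0.75 in liver and -1.79 in heart, and Ech1 lies between -1.84 and -1.63 in all 4 comparisons.

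In hearts without PPARα, 4 of the 6 genes were lower in each sex, and the order of the changes was another one. Decr1 and Ech1 were lower by 3.09-fold to 3.46-fold, Eci1 and Eci2 by at most 1.67-fold, and Decr2 and Eci3 did not pass. Over all genes, 0.412% were lower in female and 0.319% in male KO hearts, and 49 genes, 0.269%, in both. Without pools 4 and 10 the counts of members were again 4 in each sex. The median log2 difference of the 6 genes was -0.62 in females and -0.68 in males, beside -0.0053 and 0.0038 over all genes.

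Decr1 had levels of 7.52, 7.46 and 7.62 in female KO hearts, against 9.26, 9.43 and 9.28 in female WT hearts. In males it had 7.58, 7.54 and 7.62 in KO hearts, against 9.20, 9.21 and 9.35 in WT hearts. The groups were more than 1.5 apart in each sex with little spread inside them, all KO pools lying below all WT pools as in 6.58% of all genes in female and 5.46% in male heart. The difference was -1.79 in females (SE 0.08, limma adjusted p = 6.74e-09) and -1.67 in males (SE 0.08, limma adjusted p = 1.82e-08), and only 1 gene in females and 2 in males had a more negative one. Its dimmer probe set gave -1.96 and -1.77, both past the threshold over all probe sets (limma adjusted p = 9.83e-06 and 2.31e-05). Without pools 4 and 10 the brighter one gave -1.78 and -1.67.

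Ech1 had levels of 9.62, 9.72 and 9.69 in female KO hearts, against 11.46, 11.50 and 11.27 in female WT hearts. In males it had 9.68, 9.74 and 9.67 in KO hearts, against 11.34, 11.32 and 11.31 in WT hearts. KO pools lay at least 1.5 under the WT pools, at differences of -1.74 in females and -1.63 in males (SE 0.08 each, limma adjusted p = 6.74e-09 and 1.82e-08), and at -1.71 and -1.62 without pools 4 and 10.

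Both isomerase genes Eci1 and Eci2 showed smaller and clear differences in heart. Eci1 averaged 9.74 ± 0.03 in KO and 10.33 ± 0.06 in WT female hearts, and 9.72 ± 0.07 in KO and 10.33 ± 0.03 in WT male hearts (n = 3 pools each). Its differences were -0.59 (limma adjusted p = 0.000705) and -0.61 (limma adjusted p = 0.000443). Eci2 had 7.87, 7.91 and 7.82 in female KO hearts, against 8.54, 8.58 and 8.40 in female WT hearts, and 7.90, 7.81 and 7.73 in male KO hearts, against 8.62, 8.47 and 8.58 in male WT hearts. No pools overlapped, and the differences were -0.64 (limma adjusted p = 0.000766) and -0.74 (limma adjusted p = 0.00019). Without pools 4 and 10 the differences in females and males were -0.58 and -0.63 for Eci1 and -0.64 and -0.79 for Eci2.

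Decr2 and Eci3 were dim in every heart. Decr2 had 3.34, 3.43 and 3.32 in female KO hearts, against 3.49, 3.23 and 3.40 in female WT hearts. In males it had 3.47, 3.08 and 3.29 in KO hearts, against 3.60, 3.55 and 3.55 in WT hearts. These KO pools lay below the WT pools, as KO pools did for 5.46% of all genes in male heart. Its differences were -0.01 in females (95% interval -0.22 to 0.21, limma adjusted p = 0.997) and -0.29 in males (95% interval -0.50 to -0.07, limma adjusted p = 0.523). In male heart 1197 of all 18193 genes had an unadjusted limma p under 0.05. Without pools 4 and 10 the Decr2 differences were 0.0041 in females and -0.38 in males, and neither passed. On the heart arrays its level exceeded that of 51.8% to 65.8% of probe sets, which leaves little room for a lower value. Eci3 averaged 2.81 ± 0.03 in KO and 2.81 ± 0.07 in WT female hearts and 2.81 ± 0.15 in KO and 2.72 ± 0.09 in WT male hearts, under the array medians. Its differences without pools 4 and 10 were -0.003 in females and 0.02 in males.

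Markers of other tissues were measured beside these hearts. The summed linear intensity of 6 measured adipocyte markers ran from 98.6 to 219 in female KO and from 266 to 376 in female WT hearts, which did not overlap, and from 129 to 430 in male KO and from 185 to 316 in male WT hearts, which did. No adipocyte marker passed in either sex. All 8 skeletal muscle markers were higher on average in male KO than in male WT hearts, with none passing, and they summed to 263 in the array labelled male KO pool 4, against 75.4 to 84.4 in the other 11 hearts. On the array labelled female KO pool 10 the hepatocyte markers summed to 374, and no other heart exceeded 104. Atrial markers summed to 6774 to 8884 in female KO and 9451 to 9963 in female WT hearts, with 2 of 4 lower, and to 9999 to 11376 in male KO and 8718 to 9964 in male WT hearts. Red blood cell markers summed to 320 to 519 in female KO and 535 to 826 in female WT hearts, without overlap, and to 527 to 1020 in male KO and 453 to 872 in male WT hearts, and none of 3 passed. The sums of cardiomyocyte and endothelial markers in female hearts, and of macrophage markers in male hearts, were higher in KO without overlap, at 66020 to 67562 in KO and 63859 to 64721 in WT, 1003 to 1035 in KO and 971 to 979 in WT, and 513 to 597 in KO and 485 to 509 in WT, and none of these markers passed. The part of these markers in the members' values was not tested.

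The KO difference was not the same in liver and heart for 4 of the 6 genes, in each sex, by the tissue-by-genotype contrast (KO minus WT in liver less KO minus WT in heart; 0.698% of all genes passed in females and 0.517% in males). Decr2 was more negative in liver by 3.12 in females (95% interval of the contrast -3.88 to -2.36, limma adjusted p = 1.8e-05) and by 3.01 in males (-3.77 to -2.25, limma adjusted p = 3.71e-05), with the limit that its heart level left little room. Eci2 had contrasts of -1.38 and -1.09 (limma adjusted p = 1.28e-06 and 5.07e-05), and Eci1 of -1.05 and -0.72 (limma adjusted p = 9e-06 and 0.00165), so that both were more negative in liver.

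Decr1 went the other way, with contrasts of 1.04 in females (95% interval 0.80 to 1.28, limma adjusted p = 7.87e-06) and 1.18 in males (0.94 to 1.42, limma adjusted p = 2.53e-06), its difference being more negative in heart. Of all 18193 genes, 68 in females and 45 in males, 0.374% and 0.247%, passed in that direction. Its dimmer probe set gave contrasts of 0.90 and 0.74 and did not pass over all probe sets (limma adjusted p = 0.117 and 0.358). Ech1 had contrasts of -0.07 (95% interval -0.35 to 0.22) and -0.22 (-0.50 to 0.07), and Eci3 of 0.42 (0.11 to 0.73) and -0.08 (-0.39 to 0.23), and neither gene passed. The same 4 members passed without heart pools 4 and 10.

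**Figure D3:**
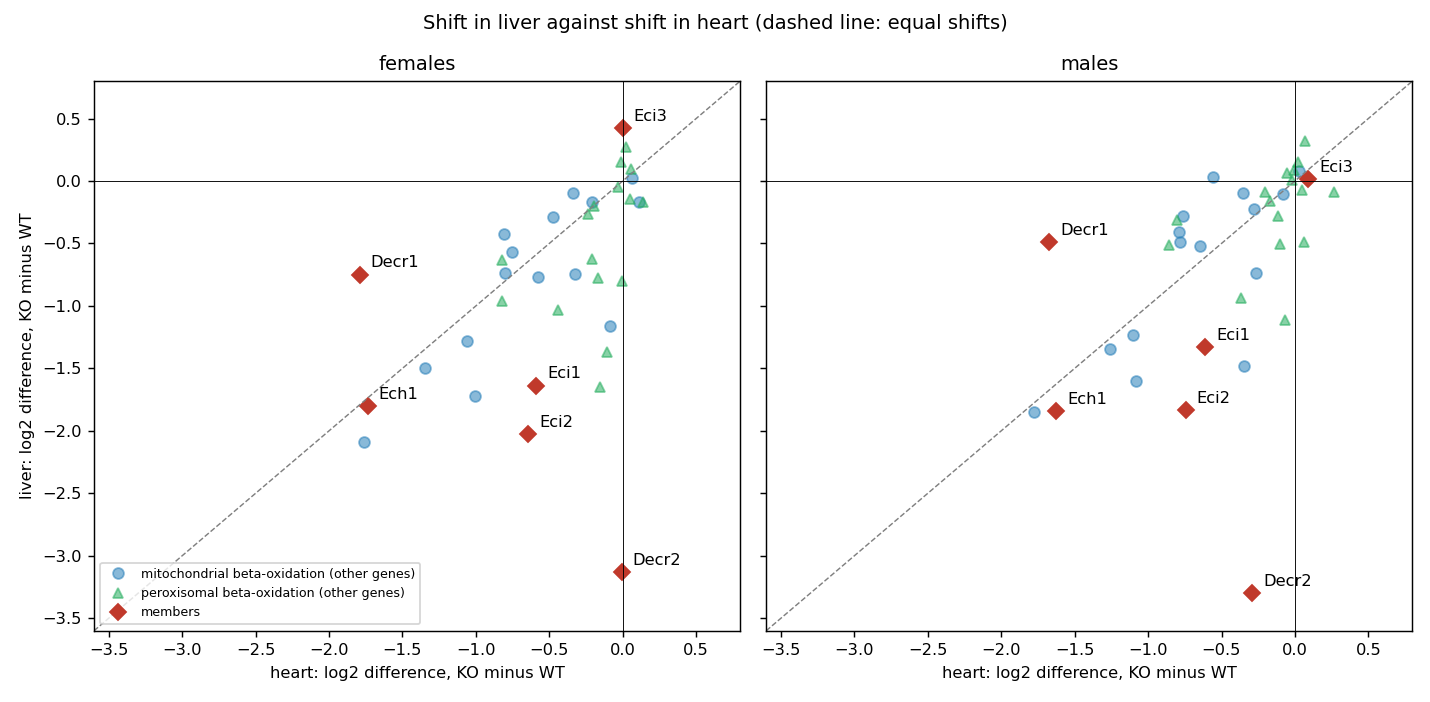
KO minus WT log2 difference in heart (horizontal) and liver (vertical) for the 6 genes (diamonds), 15 other mitochondrial (circles) and 16 other peroxisomal (triangles) beta-oxidation genes, females left and males right; the dashed line marks equal differences. Decr1 lies above the line, Ech1 close to it, and Eci1, Eci2 and Decr2 under it.

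The 2 reductase genes, Decr2 (peroxisomal) and Decr1 (mitochondrial), and the 2 isomerase genes, Eci2 (known in both organelles) and Eci1 (mitochondrial), were set against each other as the difference of 2 genes on the same array. Only the reductase pair compares a peroxisomal with a mitochondrial form. The difference was taken within an array, so that only their unequal change between genotypes was tested and not their levels. In liver, Decr2 was lower relative to Decr1 in KO than in WT by 2.38 in females and 2.81 in males, and the mean log2 shift was -2.59 (exact permutation within each sex, two-sided p = 0.005, adjusted p = 0.00667 over 4 such tests). In heart the sign was the opposite, at 1.78 in females and 1.38 in males with a mean of 1.58 (exact permutation p = 0.005, adjusted p = 0.00667), where Decr1 fell and Decr2 was near the array median. Decr2 had little room to fall in heart, so this shift follows from the lower Decr1 and cannot compare the 2 forms there. All 6 KO pools lay on 1 side of all 6 WT pools in each tissue. How often other pairs of genes separate in this way was not counted. The p of 0.005 is the smallest that 400 relabellings allow, and within 1 sex no p under 0.1 is possible.

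Eci2 was lower relative to Eci1 in KO livers by 0.39 in females and 0.50 in males, with a mean shift of -0.45 (exact permutation p = 0.005, adjusted p = 0.00667). In heart that shift was -0.09 (exact permutation p = 0.03, adjusted p = 0.03), a small shift, and it missed the threshold without pool 1, 4, 5, 6, 7, 8 or 12 and without pools 4 and 10 together (-0.11 to -0.07, exact permutation adjusted p 0.05 to 0.075).

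**Figure D4:**
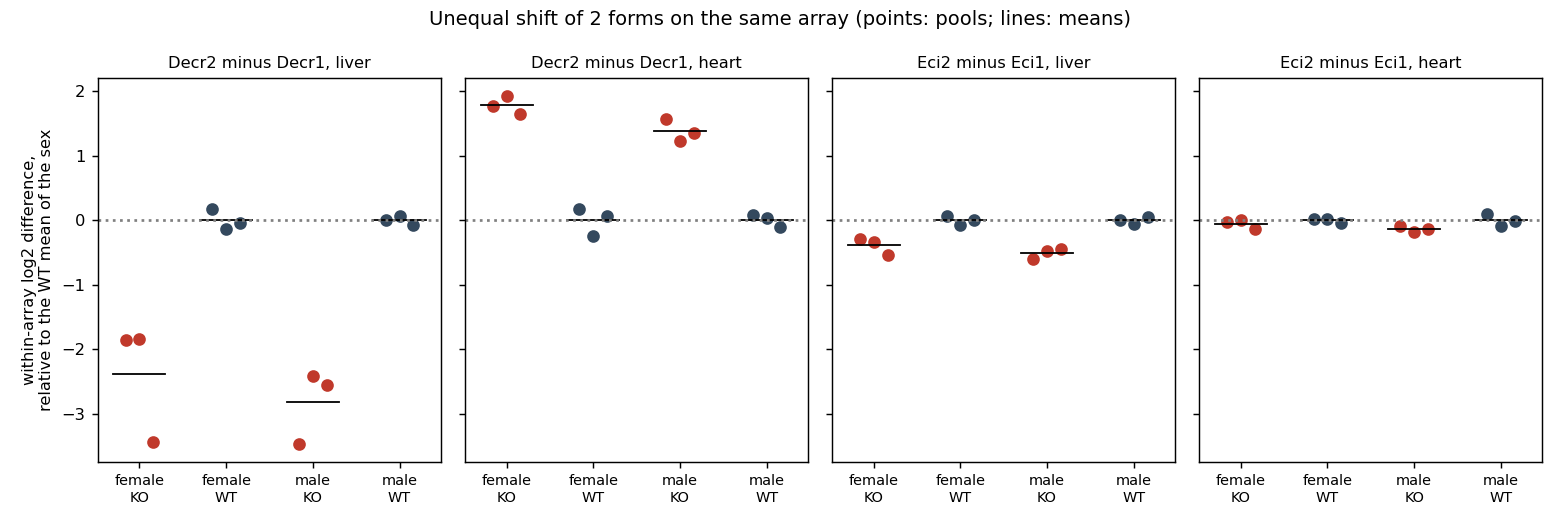
Within-array log2 difference of a pair of genes, relative to the WT mean of the same sex and tissue (vertical axis), in KO and WT pools (points; lines are means). The KO pools lie below the WT pools for Decr2 minus Decr1 in liver and above them in heart, with a small downward shift for Eci2 minus Eci1 in liver.

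The KO differences of the 6 genes did not pass the test of a difference between the sexes in either tissue. In liver the sex-by-genotype contrasts (KO minus WT in females less that in males) ran from -0.31 for Eci1 to 0.41 for Eci3 (limma adjusted p from 0.994 to 0.995), when 0.066% of all genes passed. The 95% interval for Decr2 ran from -0.86 to 1.20, and that for Ech1 from -0.31 to 0.38. Before adjustment the interval left out 0 for 3 genes, Eci1 (-0.60 to -0.02), Decr1 (-0.52 to -0.0028) and Eci3 (0.05 to 0.77), and 870 of all 18193 genes had an unadjusted p under 0.05. In heart the contrasts ran from -0.12 for Decr1 to 0.28 for Decr2 (limma adjusted p from 0.978 to 0.993), and 0 of all genes passed in limma, 820 having an unadjusted p under 0.05. Without heart pools 4 and 10 the contrasts ran from -0.11 for Decr1 to 0.39 for Decr2, and again no gene passed.

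Ech1 and Eci3 were higher in female than in male livers. In WT livers Ech1 was higher in females by 0.50 (8.78 ± 0.24 in females and 8.28 ± 0.11 in males, n = 3 pools each, limma adjusted p = 0.0436), and in KO livers by 0.53 (6.97 ± 0.06 and 6.44 ± 0.11, limma adjusted p = 0.0277). Eci3 was higher by 0.54 in WT (limma adjusted p = 0.0344) and by 0.95 in KO livers (limma adjusted p = 0.000599), with male levels under the array median. Higher levels in females passed for 0.803% of all genes in WT and 1.15% in KO livers. Both calls in WT livers were lost without pool 1, 2, 3, 7 or 8, at differences of 0.48 to 0.59 for Eci3 and 0.36 to 0.56 for Ech1, and the Ech1 call in KO livers was lost without pool 4, 6, 10 or 11 (0.50 to 0.54, limma adjusted p 0.0604 to 0.121). In hearts none of the 6 genes passed between the sexes in limma, where 0.0275% of all genes did in WT and 0.011% in KO, with 1124 and 1229 genes at an unadjusted p under 0.05. Without heart pools 4 and 10 none of the 6 genes passed either.

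Genes of the main spirals were measured beside the auxiliary enzymes. Of 15 other mitochondrial beta-oxidation genes, 10 were lower in female and 9 in male KO livers and 9 in KO hearts of each sex, and none was higher. Lower calls covered 0.451% of all genes in female and 0.434% in male KO livers, and 0.412% in female and 0.319% in male KO hearts. Slc25a20 encodes the carrier that exchanges acylcarnitine for carnitine across the inner mitochondrial membrane, and its log2 differences were -2.09 in female and -1.85 in male liver and -1.76 in female and -1.77 in male heart. Etfdh, which hands electrons of the acyl-CoA dehydrogenases to ubiquinone, had -1.72 in female and -1.60 in male liver and -1.01 in female and -1.08 in male heart. Cpt2, the inner membrane carnitine transferase, had -1.499 in female and -1.35 in male liver and -1.35 in female and -1.26 in male heart, and all of these passed. The median of the list was -0.74 and -0.49 in female and male liver and -0.58 and -0.65 in female and male heart.

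Of 16 other peroxisomal beta-oxidation genes, 5 were lower in female and 3 in male KO livers, and 3 in female and 2 in male KO hearts. The shares of all genes called lower were 0.451%, 0.434%, 0.412% and 0.319%, in that order. In liver the thiolase gene Acaa1b had log2 differences of -1.65 in females and -1.11 in males, the bifunctional enzyme gene Hsd17b4 of -1.03 and -0.93, and the fatty acid transporter gene Abcd3 of -0.63 and -0.51. In heart Abcd3 had -0.82 in females and -0.86 in males, and Pex11a, a gene of peroxisome division, had -0.82 and -0.80. The list median was -0.45 and -0.13 in female and male liver and -0.13 and -0.06 in female and male heart. By the tissue-by-genotype contrast, Acadm, the medium-chain dehydrogenase gene, and Acaa2, a thiolase gene, passed with Decr1 in the direction of heart, in males, at 0.59 and 0.48 (limma adjusted p = 0.00615 and 0.0198). Scd1, Scd2, Fads1 and Fads2, the desaturase genes that put double bonds into fatty acids, did not pass in any of the 4 comparisons of KO with WT, with differences from -1.68 for Scd1 in female heart to 0.66 for Scd2 in male heart (limma adjusted p from 0.205 to 0.995).

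All 4 members lowered in both tissues, Eci1, Eci2, Decr1 and Ech1, were among 19 genes, 0.104% of all, that passed as lower in every comparison of KO with WT. Pearson correlation over the 12 arrays of a tissue is given as a description, since these arrays share the same genotype groups. Symbols that are only clone or locus names were passed over in this ranking. The genes most like Eci1 in liver were Eci2 (r = 0.995) and Slc25a20 (r = 0.991). Those most like Eci2 were the same carrier (r = 0.992) after Eci1. Ech1 was most like Cpt2 (r = 0.987) and the electron transfer flavoprotein gene Etfb (r = 0.985), and Decr1 most like the short-chain dehydrogenase gene Acads (r = 0.971) and Eci1 (r = 0.967). Decr2 was most like Eci2 (r = 0.981) and Tmed5 (r = 0.981), and Eci3 most like Papss2 (r = 0.952) and Gpld1.

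In heart, by the same ranking, Decr1 and Ech1 were each other's closest gene (r = 0.996). Next came Slc25a20 for Decr1 (r = 0.995) and Cpt2 for Ech1 (r = 0.995). Eci1 was most like Ech1 (r = 0.993) and Acaa2 (r = 0.991), and Eci2 most like Eci1 (r = 0.987) and the lipid droplet gene Plin5 (r = 0.983). The dim genes had other neighbours, Abca12 (r = 0.892) and Pgm3 (r = 0.863) for Decr2 and Shpk (r = 0.943) and Tyk2 (r = 0.883) for Eci3.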

How the data were processed

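RNA from pools of 4 mice was hybridised to 24 Affymetrix mouse arrays. The authors deposited log2 intensities made with RMA, per the submitters' processing notes; the sources used here give neither its version nor a genome build. The table held 45101 probe sets, 64 of them controls; the probe table supplied with the data gave 34945 a single gene, 932 several genes and 9160 none. The 6 members, the gene lists and the tests were chosen with earlier results of these data known.

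Where several single-gene probe sets measured a gene, the brightest by its mean over the 24 arrays stood for it. Comparisons used limma 3.58.1 in R 4.3.3 (lmFit, eBayes, two-sided, Benjamini-Hochberg over all 18193 genes), with the 12 arrays of a tissue fitted together and all 24 for tissue by genotype, 12 comparisons in all. Every probe set was also tested, over 45037. The pairs of reductases and isomerases were compared by exact permutation of pools within each sex. No filter on dim genes was applied. Cpt1b and the adipocyte markers Plin1 and Cfd lacked a probe set of their own and were not used here. Nothing in the labels ties pools to separate experiments, so p-values measure the spread between these pools. Named genes were all members, up to 4 called genes of each beta-oxidation list with the largest change, the desaturases, the 2 genes most correlated with each member in each tissue, and genes of the label checks. Symbols that are only clone or locus names were passed over in the correlations. Among the largest changes only those shared by the comparisons are described. Alternatives were other sets of arrays, variance models, weights, normalizations, a filter on dim genes, other rules for probe sets, the pool number as a block, each pool left out in turn, and heart pools 4 and 10 left out together. The scripts were tested on simulated data.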

Additional observations from a re-analysis of the deposited data

Results flagged for a closer look

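The effect of the KO differed between liver and heart, by a test of that difference in limma, for 4 of the 6 genes. The contrast of liver less heart was -1.05 in females and -0.72 in males for Eci1, -1.38 and -1.09 for Eci2, 1.04 and 1.18 for Decr1, and -3.12 and -3.01 for Decr2. Of these 4 genes only Decr1 had the more negative difference in heart. Its dimmer probe set gave contrasts of 0.90 and 0.74, which did not pass over all probe sets. The Decr2 contrast has the limit that its heart level left little room for a lower value.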

How the results depend on the processing

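The number of members past the threshold in the comparisons of KO with WT was 5 or 6 in female liver, 4 or 5 in male liver and 4 in female and in male heart under each alternative run. For tissue by genotype it was 4 in each sex, and for sex by genotype 0. Of 1302 values of single members under these alternatives, 1275 kept their side of the threshold, 22 lost the call, 5 gained it and 0 of the called ones turned; 42 uncalled ones changed sign. The comparison of the sexes was less stable. In WT liver 2 members passed, against 0 with arrays centred on their medians and 1 with only the compared arrays, with only genes above the median gene or with every probe set tested, 3 in a fit of all 24 arrays, where Eci1 also passed, and 0 to 2 with a pool left out. In KO liver 2 passed, against 1 with only genes above the median gene, where Eci3 is not tested, and 1 to 3 with a pool left out. The Eci2 minus Eci1 shift in heart was -0.115 to -0.0687 with a pool left out and -0.11 without pools 4 and 10. Counts over all genes ran from 55 to 326 in female liver (148 in the report), 55 to 180 in male liver (110), 59 to 140 in female heart (97), 58 to 124 in male heart (73), 96 to 253 (127) and 65 to 122 (94) for tissue by genotype in females and males, 4 to 31 (12) for sex by genotype in liver, and 206 to 600 (320), 190 to 734 (352), 0 to 13 (5) and 0 to 11 (2) between the sexes in WT liver, KO liver, WT heart and KO heart. With the pool number as a replicate block, 4 members passed for tissue by genotype in each sex, with 111 and 67 genes in all. The same pool numbers recur in both tissues, with 12 mice for each sex and genotype, so same-numbered livers and hearts may share mice. Their deviations from the group mean correlated at -0.20 to 0.10, which cannot show whether they do. The main fit took the 24 arrays as separate, and the block was an alternative. The cause of each change was not tested. Levels near the array median, as of Eci3 and of Decr2 in heart, limit what can be measured.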
